A study of Mus musculus with 24 samples.

Results

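The genes described here are those that build hemoglobin in red cell precursors: the α-globin gene *Hba-a1* and the β-globin gene *Hbb-b1*, the α-globin chaperone *Ahsp*, and 6 enzymes of heme synthesis, *Alas2*, *Alad*, *Uros*, *Urod*, *Cpox* and *Fech*. They were chosen as 9 gene names carried by 11 of the 39429 probes on the array, with 2 probes each for *Alad* and *Uros* and 1 for each of the others. All 9 passed the filters and were among the 17464 genes tested. Blood was collected by cardiac puncture from male C57BL/6J mice, young (2 months) or old (21 months), that had received either 4 Gy of x-rays 24 h earlier or sham irradiation, which gave 4 groups of 6 mice: young unirradiated, young irradiated, old unirradiated and old irradiated. Each mouse was measured on 1 array. The blood was drawn into an RNA-stabilizing solution, and per the study's methods globin transcripts were reduced with a commercial depletion kit before labeling in all 4 groups, so the globin signals are those left after depletion. In whole blood, fewer cells of a type and less RNA per cell cannot be told apart.

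Mature red cells carry no nucleus and make no new RNA, and the hemoglobin transcripts of blood come largely from reticulocytes, the youngest red cells, which keep the messages made in the marrow for a short time. Heme is built in a chain that starts and ends in the mitochondrion: *Alas2* is the red cell form of the enzyme that joins glycine with succinyl-CoA, *Alad*, *Uros* and *Urod* act in the cytosol on the intermediates that become the porphyrin ring, *Cpox* oxidizes the product on its return to the mitochondrion, and *Fech* inserts the iron. Red cells are known to be sensitive to radiation through their dividing precursors in the marrow. The label was checked against red cell membrane genes: *Slc4a1*, the band 3 anion exchanger, lay between 9.59 and 11.6 on the 12 unirradiated arrays, on the scale defined next, so red cell transcripts were present.

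All levels below are log2 of the probe's signal divided by the median signal of its array, so 1 unit is a doubling relative to the array. Each level is relative to its own probe, and levels of different genes are not compared. A gene was called different between groups when it passed both thresholds of limma's moderated test, 0.005 for the p itself and 0.05 after Benjamini-Hochberg adjustment over all genes tested. The median signal of the arrays ran from 8.66 to 44.8 and 43.9% to 64.4% of spots were well above background, and the number of arrays limits the precision. Old irradiated replicates 4 and 6 had the lowest array medians, 8.66 and 8.84, and carried higher levels of all 9 genes than any of the other 22 arrays. Results of the 9 genes in old irradiated mice are therefore given with and without them. As the pair was set apart by these same levels, leaving it out lowers the old irradiated means by that choice. Both had the raised *Cdkn1a*, a p53 target, of the other irradiated mice, 4.88 and 5.42 against 0.64 to 1.85 in old unirradiated mice, and both lay on slide 6 with old irradiated replicates 3 and 5, which did not share their levels. Young irradiated replicates 2 and 5 (spot noise SD 0.0837 between them) and old unirradiated replicates 1 and 6 (0.0901) were as alike as, or barely less alike than, repeated spots of 1 probe on 1 array (0.0551 to 0.0879), against a median of 0.277 over 60 pairs of the same group. Nothing in the labels says that they are the same mouse, and they were kept as separate samples, with the count in which each pair was averaged given where it differed.

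The probe sequences bear on which gene each globin value measures and on the gene that fell most, *Ahsp*. The *Hba-a1* probe (mm9 chr11:32183955-32184014, plus strand, from base 161 of the transcript) is listed in the array design for the transcripts of both *Hba-a1* and its neighbor *Hba-a2*, so the α-globin values cannot be assigned to either copy. The *Hbb-b1* probe (mm9 chr7:110976379-110976438, minus strand) starts at base 5 of the transcript and is listed for *Hbb-b1* and for *Hbb-bs*, the β-globin gene of C57BL/6J mice in RefSeq (GRCm38.p6). Over the 46 bases that could be compared it was identical to *Hbb-bs* and differed from *Hbb-bt*, the other adult gene of this strain, at 7 of 45 bases, which are in capitals over the 30 bases shown. Both full probes and the short stretches read 5′ to 3′.
*Ahsp* probe: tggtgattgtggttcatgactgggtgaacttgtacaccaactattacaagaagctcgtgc
*Hba-a1* probe: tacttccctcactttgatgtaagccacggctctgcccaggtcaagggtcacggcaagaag
*Hbb-b1* probe, first bases: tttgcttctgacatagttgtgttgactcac
*Hbb-bs*, same stretch: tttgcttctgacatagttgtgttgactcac
*Hbb-bt*, same stretch: tttgcttctgaTTCTgttgtgttgactTGc

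Red cell genes are known to be switched on by GATA1, a zinc-finger factor that binds GATA motifs, so the 250 bases before the annotated starts were searched on both strands for AGATAA and TGATAA, and for CACCC, the motif bound by KLF1 and related factors. Of the 9 members, 6 had such a window in RefSeq, with 8 windows in all. Of these, 4 held AGATAA or TGATAA, which 16.6% of all 32851 windows of this length held, and 4 held CACCC, which 52.0% of all windows held. The windows of *Hba-a1*, *Hbb-bs*, *Alas2*, *Cpox* and the second of *Uros*, with a match, and of *Urod*, without one, are shown with AGATAA or TGATAA in capitals, or their complement where the match is on the other strand. Genes called in young mice were found with (*Uros*) and without (*Urod*) a match, and so were genes not called (*Alas2* with, *Alad* without). A match is a description of the letters only.
*Hba-a1*, chr11:32283422-32283671, plus strand: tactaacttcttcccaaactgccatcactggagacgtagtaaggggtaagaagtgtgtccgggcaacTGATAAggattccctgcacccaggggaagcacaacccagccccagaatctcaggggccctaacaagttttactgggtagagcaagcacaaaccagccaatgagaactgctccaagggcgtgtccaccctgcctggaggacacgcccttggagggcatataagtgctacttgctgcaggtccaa
*Hbb-bs*, chr7:103827929-103828178, minus strand: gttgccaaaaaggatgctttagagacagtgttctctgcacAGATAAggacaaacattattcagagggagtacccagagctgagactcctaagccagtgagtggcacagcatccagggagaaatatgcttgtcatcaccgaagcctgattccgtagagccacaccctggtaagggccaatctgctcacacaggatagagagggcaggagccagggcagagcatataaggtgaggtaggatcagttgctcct
*Alas2*, chrX:150547167-150547416, plus strand: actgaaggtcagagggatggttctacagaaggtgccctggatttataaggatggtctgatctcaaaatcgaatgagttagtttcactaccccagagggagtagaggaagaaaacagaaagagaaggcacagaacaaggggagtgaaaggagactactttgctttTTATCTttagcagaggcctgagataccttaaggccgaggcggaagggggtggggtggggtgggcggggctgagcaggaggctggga
*Cpox*, chr16:58669958-58670207, plus strand: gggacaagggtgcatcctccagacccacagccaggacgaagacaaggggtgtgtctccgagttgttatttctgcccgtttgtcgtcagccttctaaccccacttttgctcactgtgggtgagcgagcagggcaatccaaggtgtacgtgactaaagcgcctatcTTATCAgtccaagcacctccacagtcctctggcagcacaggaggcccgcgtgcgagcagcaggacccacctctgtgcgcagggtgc
*Uros*, chr7:133702501-133702750, minus strand: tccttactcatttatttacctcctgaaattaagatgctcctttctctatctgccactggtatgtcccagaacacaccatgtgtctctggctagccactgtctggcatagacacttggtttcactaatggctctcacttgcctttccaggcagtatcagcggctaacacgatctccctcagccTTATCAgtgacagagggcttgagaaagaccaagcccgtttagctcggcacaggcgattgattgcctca
*Urod*, chr4:116994414-116994663, minus strand: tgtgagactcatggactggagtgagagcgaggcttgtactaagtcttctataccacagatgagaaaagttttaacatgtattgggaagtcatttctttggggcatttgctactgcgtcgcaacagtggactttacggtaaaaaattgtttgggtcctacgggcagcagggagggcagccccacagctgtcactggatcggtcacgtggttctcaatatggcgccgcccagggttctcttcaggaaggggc

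In young mice, 4 of the 9 genes were lower 24 h after irradiation and none was higher: *Ahsp*, *Fech*, *Urod* and *Uros*. The globins and *Alas2*, the first enzyme of the chain, were not called. Over all genes 35.8% were called and 21.4% were called lower, so 4 of 9 has to be read against a response of that breadth. The median difference of the 9 genes was -0.43 and that of all genes was -0.20. The plot of levels by array shows each mouse.

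**Figure D1:**
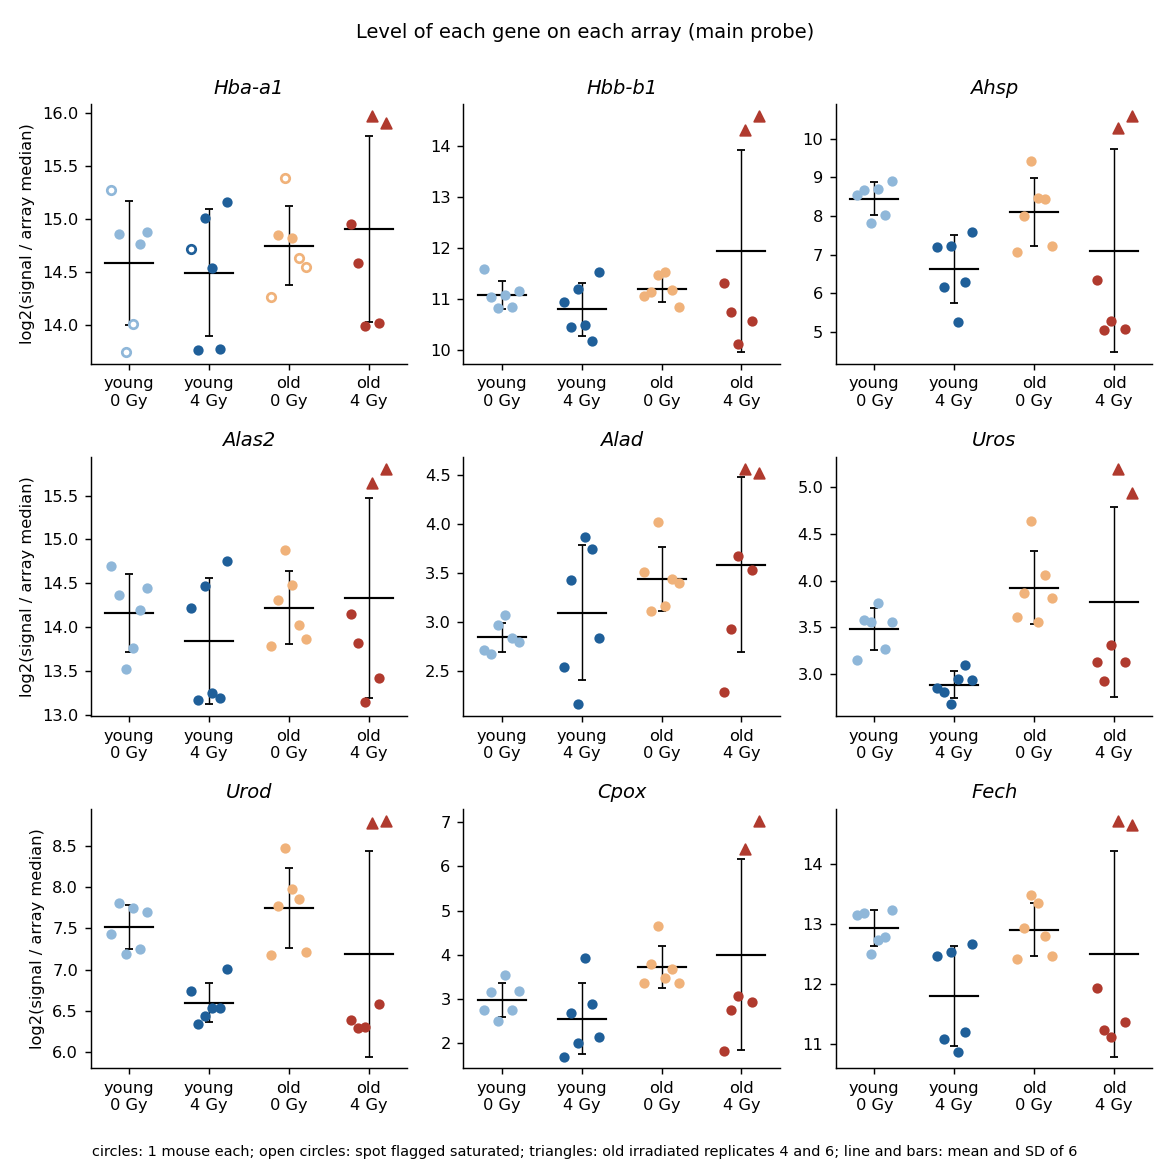
Level of each of the 9 genes (log2 of signal over array median, main probe) on each of the 24 arrays, by group, with the mean and SD of 6 mice as line and bars. Irradiated young mice lie below unirradiated young mice for *Ahsp*, *Uros* and *Urod*, and the triangles, old irradiated replicates 4 and 6, lie above all other arrays in every panel.

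*Hba-a1* lay between 13.7 and 15.3 (median 14.8) in young unirradiated mice and between 13.8 and 15.2 (median 14.6) in young irradiated mice. The groups overlapped over nearly their whole range, and the difference was -0.09 ± 0.32 (SE, n = 6 and 6, adjusted p = 0.83). Its signal lay near the scanner's ceiling: the spot was flagged saturated on 3 young unirradiated, 1 young irradiated, 4 old unirradiated and no old irradiated arrays, and its signal ran only from 463770 to 627478 over all 24 arrays, 1.35-fold, while the array medians it was divided by ran from 8.66 to 44.8. The level of *Hba-a1* therefore followed mainly the array median, as the plot of levels against array medians shows, and a difference of the transcript itself was not measurable here. A probe in *Hba-a2* that was not flagged gave -0.12 ± 0.33 (adjusted p = 0.79), but its signal was nearly as bright, 371942 to 581959, so it is no check of the first.

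*Hbb-b1*, whose spot reached at most 33.6% of the saturation value, lay between 10.8 and 11.6 (median 11.1) in young unirradiated mice. In young irradiated mice it lay between 10.2 and 11.5 (median 10.7). The groups overlapped, and the difference of -0.29 ± 0.23 (95% confidence interval -0.79 to 0.21, adjusted p = 0.33) did not pass. *Hbb-bt*, the other adult β-globin gene of this strain, gave -0.47 ± 0.28 (adjusted p = 0.18). The probe named *Hbb-b2* gave -0.44 ± 0.24 (adjusted p = 0.14), and its match to *Hbb-bs* and *Hbb-bt* was not worked out. None of the 5 other globin genes tested was called, with a median of -0.44.

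*Ahsp*, which binds free α-globin and keeps it from precipitating, fell most. It lay between 7.82 and 8.91 (median 8.62) in young unirradiated mice and between 5.25 and 7.60 (median 6.75) in young irradiated mice, with no overlap, which 24.9% of all genes shared. The difference was -1.83 ± 0.37 (SE, n = 6 and 6), 3.55-fold lower (adjusted p = 0.00133). Among irradiated mice the lowest value, 5.25, was that of replicate 4, and the 3 highest were those of replicates 1, 3 and 6.

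The levels of *Alas2* were 13.5 to 14.7 (median 14.3) without radiation and 13.2 to 14.7 (median 13.7) after it. The irradiated mice fell into a high and a low set, with replicates 1, 3 and 6 at 14.2 to 14.7 and replicates 2, 4 and 5 at 13.2 to 13.3. Before division by the array median, replicates 2 and 5 had signals of 369607 and 362849, and replicates 1, 3 and 6 had 387060 to 428053. Their array medians were 40.1 and 38.6, and 14.4 to 22.4. Replicate 4 had a signal of 190146. The part of the array median in this split was not tested. The difference was -0.32 ± 0.32 (adjusted p = 0.44). The spot was bright, up to 80.7% of the saturation value but never flagged, and a compression of its differences was not tested.

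*Alad*, which condenses the first intermediate into a pyrrole, was 2.67 to 3.07 (median 2.81) in young unirradiated mice and 2.16 to 3.87 (median 3.13) in young irradiated mice. Its spread widened on both sides, and the difference was 0.25 ± 0.27 (adjusted p = 0.47). The other *Alad* probe gave -0.31 ± 0.32 (adjusted p = 0.46 over single probes). The 2 probes thus disagreed in sign without either passing.

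*Uros*, which closes the ring, lay between 3.15 and 3.76 (median 3.55) without radiation and between 2.68 and 3.10 (median 2.90) after it, without overlap. The fall of 0.59 on the log2 scale (SE 0.14, adjusted p = 0.00381) was the most even among the called genes, with an SD of 0.14 in the irradiated group. The other *Uros* probe, well above background on 17 of 24 arrays, differed by -0.60 ± 0.32 and did not pass (adjusted p = 0.15 over single probes).

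*Urod*, which trims the side chains of the ring, was 7.19 to 7.80 (median 7.57) in unirradiated and 6.34 to 7.01 (median 6.53) in irradiated young mice. The groups did not overlap, and the difference of -0.92 ± 0.16, 1.89-fold lower, had the lowest adjusted p of the 9 genes (0.000614). *Cpox* lay between 2.49 and 3.54 (median 2.96) and between 1.69 and 3.92 (median 2.41), in that order. Its difference of -0.43 ± 0.33 did not pass (adjusted p = 0.32), and irradiated replicate 4 had the highest value of either young group.

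*Fech*, the last enzyme, lay between 12.5 and 13.2 (median 12.97) in young unirradiated mice. In young irradiated mice replicates 1, 3 and 6 lay at 12.5 to 12.7 and replicates 2, 4 and 5 at 10.9 to 11.2, so the upper set reached into the range of the controls and the lower set did not. Before division by the array median, replicates 2 and 5 had signals of 86536.9 and 91058.2, and replicates 1, 3 and 6 had 93196.1 to 125918. Replicate 4 had the lowest signal, 36425, at an array median of 19.6. These signals, 36425 to 125918, all lay below those of young unirradiated mice, 138730 to 259878. The part of the array median in the split between the sets was not tested. The difference was -1.13 ± 0.33 (adjusted p = 0.0136). It lay just inside the threshold on the unadjusted p, and in 9 of the 12 fits that left out 1 array it did not pass, with differences from -1.30 to -0.94. Averaging the alike arrays, an alternative chosen after seeing the data, also ended the call of *Fech*, with a difference of -0.996 on fewer samples, and left *Ahsp*, *Urod* and *Uros*. Without the irradiated replicates 2, 4 and 5 the difference was -0.38 and not called.

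**Figure D2:**
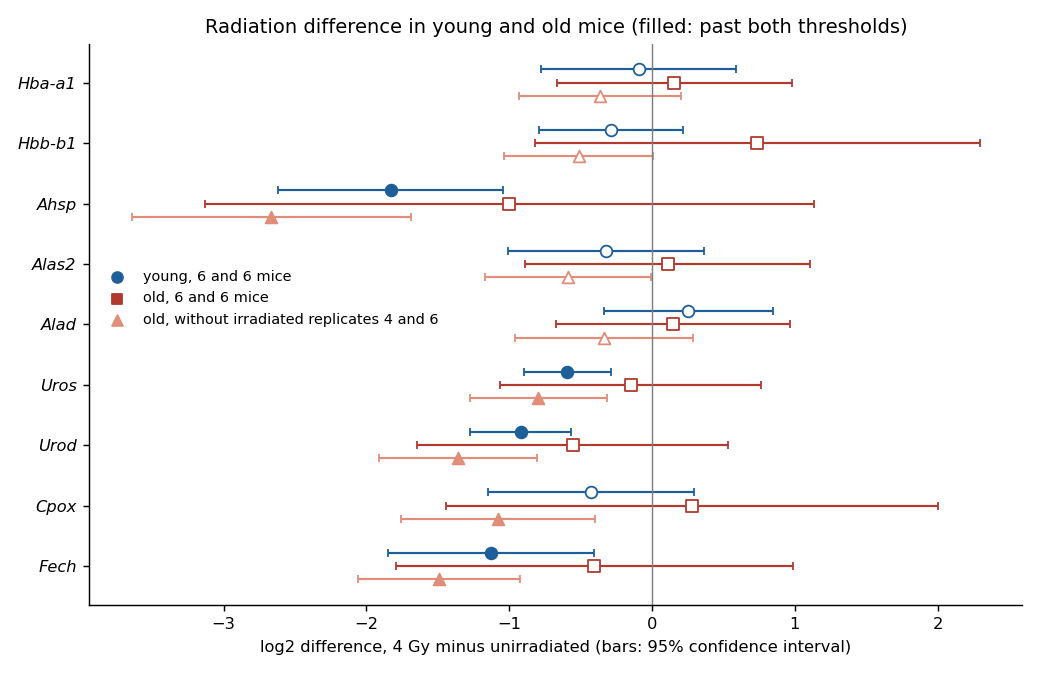
Log2 difference between irradiated and unirradiated mice with its 95% confidence interval, for young mice (circles), old mice (squares) and old mice without irradiated replicates 4 and 6 (triangles), filled where both thresholds were passed. *Ahsp*, *Uros*, *Urod* and *Fech* are filled in young mice and, with *Cpox*, in the reduced old set, while no gene is filled in the full old set.

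In old mice with all 6 irradiated arrays, limma called none of the 9 genes, none had an unadjusted p below 0.05, and the adjusted p were 0.41 or higher, while 25.0% of all genes were called (17.4% lower). Of the called genes 30.4% were higher, and 54.4% were with the arrays scaled to the median of probes above background, so this background depends on the scaling. The groups overlapped for all 9, while 22.7% of all genes did not overlap. The differences ran from -1.0 for *Ahsp* to 0.74 for *Hbb-b1*, with a median of 0.11 against -0.25 for all genes. Without irradiated replicates 4 and 6, 5 of 9 were lower and none higher: *Ahsp*, *Fech*, *Urod*, *Cpox* and *Uros*. This set was chosen after seeing the data, by the levels of these same genes, which pushes the differences down. In that fit 34.7% of all genes were called and 22.8% were called lower.

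The values of *Ahsp* show the split. It lay between 7.08 and 9.42 (median 8.21) in old unirradiated mice, between 5.05 and 6.33 in 4 irradiated mice, and at 10.3 and 10.6 in replicates 4 and 6. Those 2 arrays exceeded the highest of the other 22, 9.42. With all arrays the difference was -1.0 ± 0.99 (adjusted p = 0.45), and without the pair it was -2.67 ± 0.45 (n = 4 and 6, adjusted p = 0.00094), 6.35-fold lower. The 4 irradiated mice did not overlap the controls, which was so for 32.7% of all genes in this set.

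*Fech* lay between 12.4 and 13.5 (median 12.9) in old unirradiated mice, between 11.1 and 11.9 in the same 4 irradiated mice, and at 14.7 and 14.6 in replicates 4 and 6. The difference was -0.40 ± 0.65 (adjusted p = 0.65) with the pair and -1.49 ± 0.26 (adjusted p = 0.00109) without it. For *Urod* the values were 7.18 to 8.47 (median 7.82) in controls, 6.29 to 6.59 in the 4 irradiated mice, and 8.78 and 8.81 in the pair. Its difference moved from -0.56 ± 0.51 (adjusted p = 0.41) to -1.36 ± 0.25 (adjusted p = 0.00154). On this scale both genes were thus lower without overlap in 4 of 6 irradiated mice and stood above every control in the other 2. Of all genes, 32.7% did not overlap in the set without the pair. Before division by the array median, *Fech* in the pair, 232870 and 225930, was still above the controls, 148378 to 194581. The signals of *Urod* in the pair, 3816.05 and 3958.36, were not, against 3894.94 to 5572.08 in controls.

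*Cpox* was called in old mice without the pair and not in young mice, and the test of that difference is the interaction given further on. It was 3.36 to 4.65 (median 3.58) in old unirradiated mice, 1.82 to 3.07 in 4 irradiated mice, and 6.40 and 7.03 in replicates 4 and 6. The difference was 0.28 ± 0.80 (adjusted p = 0.80) with the pair and -1.08 ± 0.31 (adjusted p = 0.0142) without it. *Uros* lay at 3.56 to 4.63 (median 3.84), 2.93 to 3.31, and 5.197 and 4.94, in that order, and differed by -0.15 ± 0.42 (adjusted p = 0.80) and -0.80 ± 0.22 (adjusted p = 0.0115). The other *Uros* probe gave -1.53 ± 0.39 without the pair and passed (adjusted p = 0.00828 over single probes). In irradiated replicates 2 and 3 that probe was not well above background, with signals of 13.1 and 9.25, so the size of its difference is uncertain.

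The remaining 4 genes were not called in old mice in either set. *Hbb-b1* lay between 10.8 and 11.5 (median 11.2) in controls and between 10.1 and 11.3 in 4 irradiated mice, and at 14.3 and 14.6 in replicates 4 and 6, a separation of 3.75 between the means of the pair and of the 4. The raw signals of *Hbb-b1* in the pair, 176527 and 216647, were also above those of the 4, which ran from 36260.7 to 50485.5. The raw signals of *Ahsp*, *Alas2*, *Urod*, *Cpox* and *Fech* in the pair were likewise above the 4, while those of *Hba-a1*, *Alad* and *Uros* lay within their range. The difference was 0.74 ± 0.72 (adjusted p = 0.45) with the pair and -0.51 ± 0.24 (adjusted p = 0.095) without it.

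*Alas2* was 13.8 to 14.9 (median 14.2) in old controls, 13.1 to 14.2 in the 4 irradiated mice, and 15.6 and 15.8 in the pair, with differences of 0.11 ± 0.46 (adjusted p = 0.87) and -0.59 ± 0.27 (adjusted p = 0.0887). *Hba-a1* was 14.3 to 15.4 (median 14.7), 14.0 to 15.0, and 16.0 and 15.9, with 0.15 ± 0.38 (adjusted p = 0.77) and -0.36 ± 0.26 (adjusted p = 0.27), under the same ceiling as in young mice. *Alad* was 3.11 to 4.02 (median 3.42), 2.28 to 3.67, and 4.57 and 4.53. Its differences were 0.15 ± 0.38 (adjusted p = 0.78) and -0.34 ± 0.28 (adjusted p = 0.35), and its groups overlapped in either set.

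The pair stood apart from the other 4 old irradiated mice in markers of red cells, monocytes and proliferation too. The mean level of 22 red cell markers was 8.26 and 8.23 in replicates 4 and 6, 3.96 to 4.85 in the other old irradiated mice and 5.67 to 7.07 in old unirradiated mice. *Slc4a1* was 12.4 and 12.8 in the pair and 6.48 to 7.65 in the other 4. The mean of the monocyte markers was the lowest of all 24 arrays in the pair, 4.59 and 4.74 against 6.20 to 6.87 in the other 4, and *Csf1r*, the receptor that marks monocytes, was 7.19 and 7.16 against 9.20 to 9.59. The mean of 14 proliferation genes was 3.06 in both and 1.76 to 1.92 in the other 4, but 2.53 to 3.57 in old unirradiated mice. So for proliferation the pair lay within the range of the controls. T cell markers (5.93 and 6.05 against 5.28 to 5.78 in the other 4) lay outside that range too. So did endothelial (3.91 and 3.87 against 4.26 to 4.80) and, narrowly, neutrophil markers (5.77 and 5.90 against 5.92 to 8.03). The part of the low array medians in these values was not tested.

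**Figure D3:**
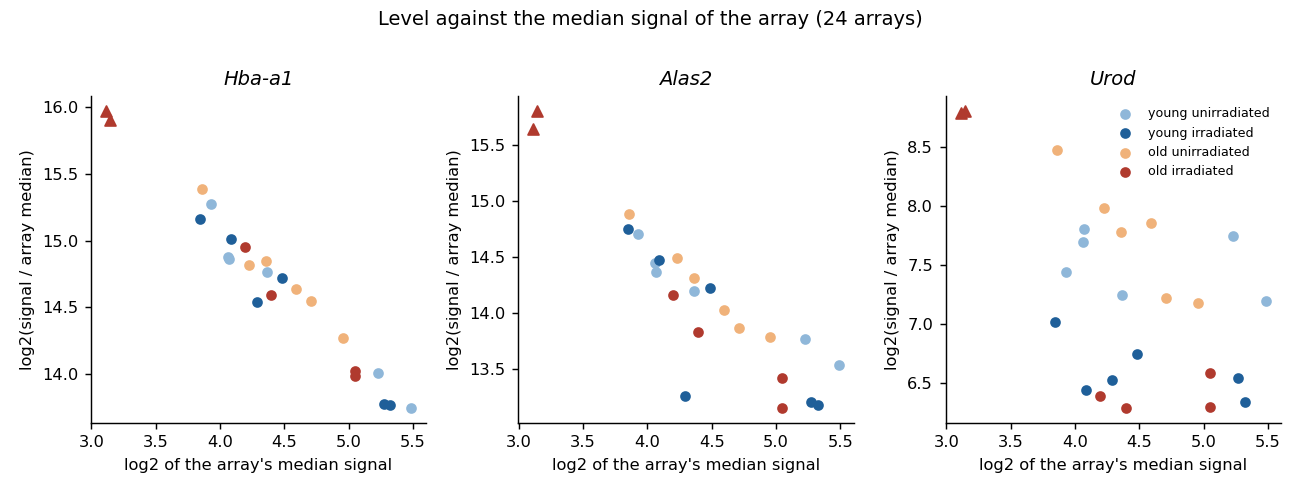
Level of *Hba-a1*, *Alas2* and *Urod* (log2 of signal over array median) against log2 of the median signal of the same array, 24 arrays, with old irradiated replicates 4 and 6 as triangles. *Hba-a1* follows the array median closely in all groups, while *Urod* separates irradiated from unirradiated mice at like medians apart from the triangles.

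The size of the response was compared between ages by an interaction over all 24 arrays. None of the 9 genes was called by limma, none had an unadjusted p below 0.05, and the lowest adjusted p was 0.41. No gene of the array was called (0% of 17464, with 4115 at an unadjusted p below 0.05). The interaction estimates ran from -0.11 to 1.03, and 8 of 9 were positive, that is, the difference between irradiated and unirradiated mice was the higher one in old mice. Without old irradiated replicates 4 and 6 they ran from -0.84 to -0.21, all 9 negative, again with no member called, no member at an unadjusted p below 0.05, and 0.149% of all genes called (0.103% negative, 0.0458% positive). The signs of these estimates thus changed with 2 mice that were set apart for their high levels of these same genes. Leaving them out lowers the old irradiated means by that choice, and neither set established a sign.

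Irradiated old and young mice were also compared directly. None of the 9 genes was called (1 had an unadjusted p below 0.05), against 2.00% of all genes (1.40% higher in old mice, 0.601% lower), and all 9 differences were positive, from 0.41 to 1.45. Of the genes called, 70% were higher in old mice, and 28% were with the arrays scaled to the median of probes above background. The groups overlapped for all 9, while 5.06% of all genes did not overlap. Without the pair none of the members was called either, while 28.5% of all genes were (20.3% higher in old mice), and again all 9 overlapped, against 30.5% of all genes that did not. In this set 6 of the 9 differences were negative, from -1.18 for *Ahsp* upward.

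Without radiation, old and young mice differed in 1 of the 9 genes. *Alad* was higher in old mice, 3.11 to 4.02 (median 3.42) against 2.67 to 3.07 (median 2.81), without overlap, by 0.60 ± 0.16 (SE, n = 6 and 6, adjusted p = 0.00375). This comparison moved most of the array: 63.8% of all genes were called, 48.3% higher in old mice, 48.6% did not overlap, and the median difference of all genes was 0.63, so *Alad* moved with the bulk of genes. With the arrays scaled to the median of probes above background, the median of all genes was -0.11, 20.6% of the called genes were higher in old mice in place of 75.7%, and none of the 9 genes was called (limma, adjusted p threshold as above). The other *Alad* probe, further along the transcript, was lower in old mice, by -1.45 ± 0.23 (adjusted p = 0.000119 over single probes), with values of -1.05 to 0.42 in old and 0.68 to 1.67 in young mice, though only 2 of the 6 old unirradiated arrays were well above background for it. The direction of *Alad* with age therefore depended on the probe. The call was also lost when young unirradiated replicate 1 or 2 or old unirradiated replicate 1 was left out, with differences of 0.48 to 0.67 over all 12 such fits.

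*Cpox* at 0.74 ± 0.24 (adjusted p = 0.0117) and *Uros* at 0.44 ± 0.19 (adjusted p = 0.0424) missed the threshold on the unadjusted p. *Ahsp* differed by -0.35 ± 0.35, and *Hba-a1*, *Hbb-b1*, *Alas2*, *Urod* and *Fech* by -0.02 to 0.23, all with adjusted p of 0.35 or higher. Of the 9 differences, 7 were positive with *Cpox* alone above the median of all genes, and under other scalings the signs of the globins, *Alas2*, *Uros* and *Urod* turned.

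The other genes of the pathway were taken from lists of its supply and control. Of 20 tested genes for mitochondrial transport, iron delivery and iron-sulfur clusters, 6 were lower and 3 higher in irradiated young mice (median -0.24), against 21.4% and 14.4% of all genes and a median of -0.20. Among the most abundant, *Slc25a37* (mitoferrin, which brings iron into the mitochondrion) fell by 1.54, *Glrx5* by 2.01, *Iscu* by 1.37 and *Isca1* by 1.33 on the log2 scale, the last 3 being assembly factors of iron-sulfur clusters. In old mice 1 was lower and 2 were higher with all arrays, against 17.4% and 7.60% of all genes. Without replicates 4 and 6, 10 were lower and 3 higher (median -0.86, against 22.8% and 11.9% of all genes and a median of -0.30). *Glrx5* at -2.80 and *Slc25a37* at -2.17 were among the lower.

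Heme synthesis enzymes outside the 9 genes were looked at as well. *Ppox*, the step before *Fech*, was not called in young mice (-0.44) or in old mice with or without the pair (0.53 and -0.35). *Alas1*, the form of the first enzyme found in all tissues and abundant in liver, differed by 1.17 ± 0.37 in young mice (adjusted p = 0.02, p above the threshold) and was higher in old mice without the pair (1.26 ± 0.22, adjusted p = 0.00119), with a difference of 0.16 ± 0.64 over all arrays. The other *Alas1* probe gave 0.17 ± 0.54 and 0.10 ± 0.31 in the same comparisons, so the 2 probes differed in size.

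Of 14 tested regulators of globin and heme genes, 6 were higher and 4 lower in irradiated young mice, where 14.4% of all genes were higher and 21.4% lower. In old mice 5 were higher and 3 lower with all arrays, against 7.60% and 17.4% of all genes. Without the pair 6 were higher and 4 lower, against 11.9% and 22.8%. *Gata1* (1.64 in young and 1.83 in old mice with all arrays), *Tal1* (2.11 and 2.11) and *Nfe2* (1.52 and 1.45) rose in both ages, and by 1.75, 2.42 and 1.56 in old mice without the pair, while *Lmo2*, a partner of *Tal1*, fell by 1.66 in young mice and was called in old mice only without the pair (-2.43, against -1.25 with all arrays). *Gata1*, *Tal1* and *Nfe2* are also used by the platelet lineage, and all 12 platelet markers tested were higher after irradiation at both ages (medians 1.92 and 1.83, and 1.71 in old mice without the pair). Of all genes, 14.4% were higher in young mice, 7.60% in old mice and 11.9% in old mice without the pair. The part of platelet transcripts in the rise of these regulators was not tested.

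**Figure D4:**
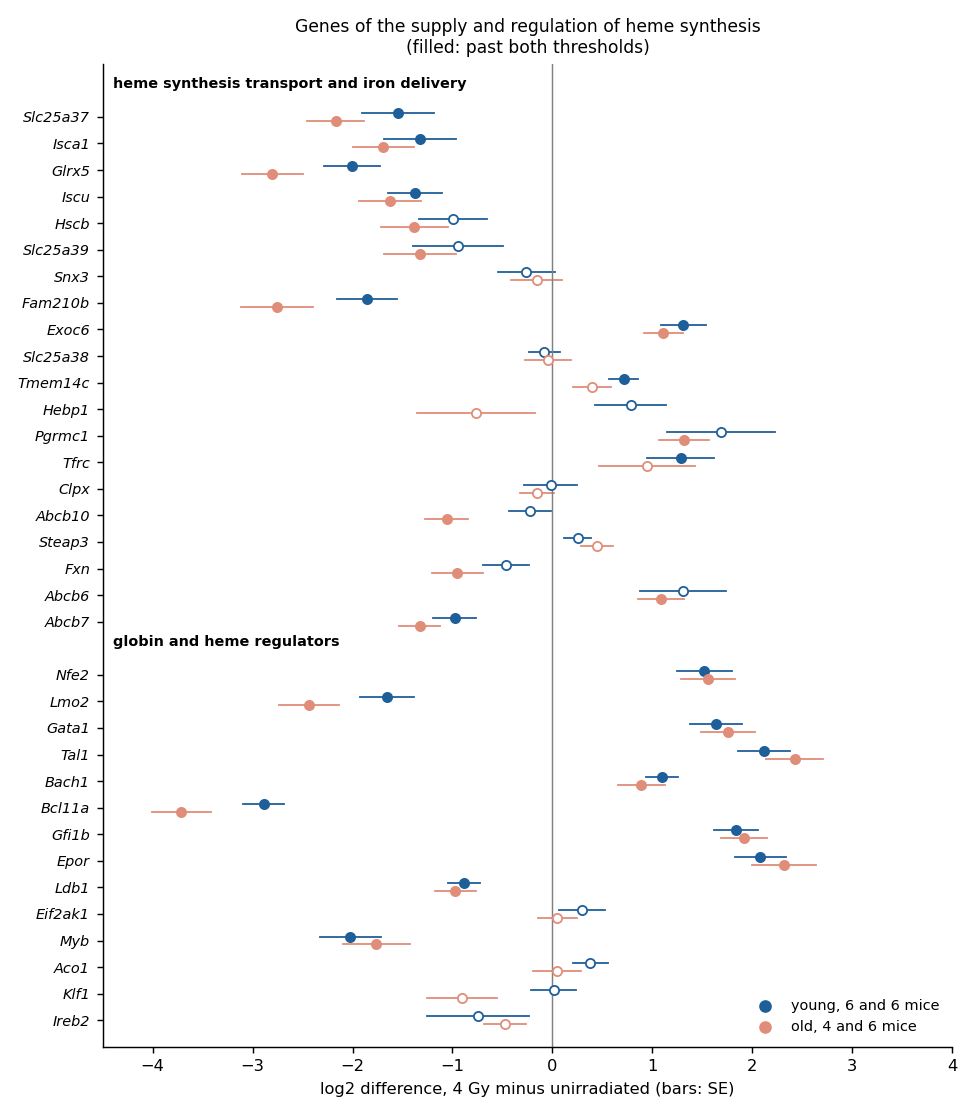
Log2 difference (4 Gy minus unirradiated, bars are SE) of the transport and iron genes and the regulators, for young mice (blue) and for old mice without irradiated replicates 4 and 6 (salmon), filled where both thresholds were passed. The iron-sulfur genes lie to the left and *Gata1*, *Tal1* and *Nfe2* to the right at both ages.

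Of 22 red cell markers tested, 16 were lower and 2 higher in irradiated young mice (median -1.46, against 21.4% of all genes lower and 14.4% higher). In old mice none was lower and 2 were higher with all arrays, against 17.4% and 7.60% of all genes. Without the pair 20 were lower and 2 higher (median -2.15, against 22.8% of all genes lower and 11.9% higher). The mean over the 22 ran from 5.82 to 6.43 in young unirradiated and from 3.78 to 5.68 in young irradiated mice, without overlap. Of 14 proliferation genes, 5 were lower in young mice (median -0.69), 5 in old mice with all arrays (median -0.88) and 10 in old mice without the pair (median -1.20). Of all genes, 21.4%, 17.4% and 22.8% were lower, in that order.

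Liver transcripts moved with some of the differences within the irradiated groups. The mean level of 13 hepatocyte markers was 9.41 to 10.4 in young irradiated replicates 2, 4 and 5 and 2.25 to 2.72 in replicates 1, 3 and 6, and it was 8.87 to 9.51 in old irradiated replicates 2, 3 and 5, 1.27 in replicate 1 and 3.77 in both replicates 4 and 6. It was 1.37 to 6.63 in young and -0.20 to 0.53 in old unirradiated mice. Albumin, *Alb*, spanned -2.81 to 12.4 over the 24 arrays. In the 3 young irradiated mice with the high mean, *Fech* (10.9 to 11.2), *Alas2* (13.2 to 13.3) and *Ahsp* (5.25 to 6.29) were the lowest of the young irradiated group and *Alad* (3.43 to 3.87) was the highest. Of these 3, replicates 2 and 5 had the highest array medians of the group, 40.1 and 38.6. The part of the array median in these levels was not tested.

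Without the 6 irradiated arrays of high hepatocyte signal, an alternative chosen after seeing the data, *Ahsp*, *Urod*, *Uros* and *Cpox* were called lower in young mice and *Fech*, at -0.38, was not. The differences of *Alas2* and *Hbb-b1* were then 0.32 and 0.14 and that of *Alad* -0.33, none called. In old mice the same step left irradiated replicates 1, 4 and 6, and *Hbb-b1* was the 1 member called, 2.20 higher. The shares of all genes called after this step are not reported here, so these calls are not read against them. The 21.4% of all genes called lower in the full young fit came from a larger set of arrays and is no background for these calls.

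**Figure D5:**
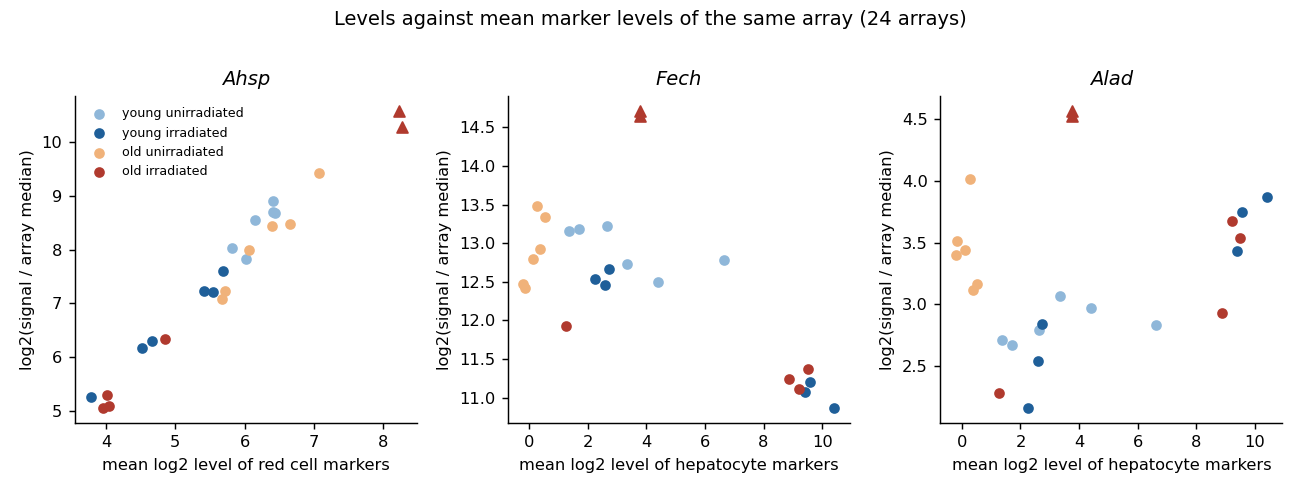
Level of *Ahsp* against the mean level of 22 red cell markers, and of *Fech* and *Alad* against the mean level of 13 hepatocyte markers, on the same 24 arrays (all axes log2). *Ahsp* rises with the red cell mean across all groups, and the 3 young irradiated arrays with the highest hepatocyte means have the lowest *Fech* and the highest *Alad* of their group.

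Slides held 4 arrays each, and 1 slide per age held both treatments with 2 mice each. On that slide the young differences were -1.79 for *Ahsp*, -1.24 for *Fech*, -0.93 for *Urod* and -0.58 for *Uros*, near those of the whole groups, and *Hba-a1* differed by -0.58. With slide as a fixed block, which leaves that slide alone to carry the difference, none of the 4 passed (limma, adjusted p of 0.075 to 0.22), and 1812 genes were called in place of 6251. On the old slide, which held neither irradiated replicate 4 nor 6, they were -2.14 for *Ahsp*, -1.05 for *Fech*, -1.20 for *Urod*, -1.24 for *Cpox* and -0.91 for *Uros*, of the same sign as without the pair. *Alad* differed by -0.81 there, and *Hba-a1*, *Hbb-b1* and *Alas2* by 0.18, 0.024 and 0.047, where the 4 irradiated mice gave -0.36, -0.51 and -0.59. Young and old mice lay on separate slides scanned on separate days, so age and slide cannot be told apart.

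Likeness to *Alas2* over the 24 arrays was ranked among 18698 genes, a count that includes the 9, which were left out of the ranking. The most alike began with *Hbb-bt* (Pearson r = 0.98), *Oaz1*, an inhibitor of polyamine synthesis (r = 0.98), and *Pebp1* (r = 0.96), with 2 unnamed transcripts between and after them. After subtraction of each group's mean and without old irradiated replicates 4 and 6 (22 arrays) *Hbb-bt* was still the first, at r = 0.97, followed among named genes by *Oaz1*, *Epas1* and *Fam46c* at 0.95 to 0.93. For *Hbb-b1* the most alike over 24 arrays was the probe named *Hbb-b2* (r = 0.98), and without the pair and the group means *Hbb-bt* and *Hbb-b2* were at 0.92 each. Every value on an array carries that array's median with the opposite sign, which all these points share.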

How the data were processed

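Blood RNA of 24 mice was labeled with Cy3 and hybridized to 1-color Agilent mouse arrays, 1 mouse per array on 6 slides. The deposited scanner files hold the spot intensity after background subtraction by Agilent Feature Extraction 12.0.2 (per the labels), not scaled between arrays. The authors' deposited table of log2 values, which the study's methods describe as median normalized and filtered and which lists 7 of the 9 members, served as an alternative only.

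The intensity of 43020 spots that are not controls was turned to log2 and each array's median was subtracted. Spots of a probe were averaged. Probes flagged non-uniform or not significantly above background on 25% or more of the arrays were left out (24121 of 39429 kept), the probe with the highest mean was taken per gene, and genes less than 1.5-fold from their median on over 80% of arrays were left out, which left 17464. Each comparison was fitted with limma 3.58.1 (R 4.3.3) on its 12 arrays, and the interaction on all 24, after the class comparison the study's methods describe, with p below 0.005 and adjusted p below 0.05. The test was checked on simulated data. Alternatives covered scaling, background correction, filters, probe choice, variance model, slide, replicate number and each array left out. Named were all 9 members with all their probes, and of other lists genes among the 4 tested with the highest mean level. The markers *Slc4a1*, *Alb* and *Cdkn1a* were named outside that rule, and so were the regulators under other observations. Some results of these lists are not reported here. The members and lists were chosen with earlier results of these data known. The labels number the replicates, and the study's methods and design text give 6 mice, in independent experiments, for each group. Sequences are from the array design (mm9) and RefSeq (GRCm38.p6), and figures were drawn with matplotlib 3.10.9.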

Additional observations from a re-analysis of the deposited data

Results flagged for a closer look

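*Cpox* in old unirradiated replicate 3, at 4.65, stood 0.67 of the group's whole range above the next highest of the 6 mice, 3.78, past Dixon's critical value for 6 samples. It was the 1 such gap among 44 groups of probe values tested, and chance gives about 1 in 20. The same mouse had the highest *Ahsp* (9.42), *Urod* (8.47), *Uros* (4.63), *Alad* (4.02) and *Fech* (13.5) of its group and the lowest array median (14.5). Without it the age difference of *Cpox* was 0.55.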

How the results depend on the processing

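In young irradiated mice, the 4 members called became 3 or 4 under the other settings and 3 to 4 when each array was left out, but 0 with normexp background correction, with 1 fit of all 24 arrays and with slide as a fixed block. In old mice the count stayed 0 under every scaling and with each array left out (0 to 0). It was 5 with old irradiated replicates 4 and 6 left out together, 3 when these arrays were also scaled to the median of probes above background (*Ahsp*, *Fech* and *Urod*), and 1 without the 6 irradiated arrays of high hepatocyte signal, all chosen after seeing the data. For age without radiation the count of 1 became 0 with scaling to the 75th percentile, the probes above background or the spike-in controls, with quantile normalization, normexp, the mean of all probes, 1 fit of all arrays or the replicate block, 2 (*Alad* and *Cpox*) with trend and robust variance or slide as a random block, and 0 to 2 with each array left out. Old against young irradiated mice gave 1 (*Ahsp*) without the pair at the median of probes above background, and 0 to 0 with each array left out, as did the interaction. The replicate block gave 3 members in young mice (*Uros* lost) and 0 in old mice, and replicate numbers do not pair the mice: deviations of same-numbered arrays correlated from -0.60 to 0.58.

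Over all genes, normexp called 835 of the tested genes in young mice (6251 as reported), 8 in old mice (4366) and 0 for age (11140, against 4448 to 5662 under the other scalings and in the authors' values). Slide as a fixed block called 1812 in young and 500 in old mice, and the spike-in scaling 3236 and 1956. Old against young irradiated mice gave 2 (replicate block) to 4976 (without the pair) against 350, and the interaction 3609 without the high-hepatocyte arrays against 0.

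Signs also turned for single members, and the cause was not tested. For young mice the differences were 0.37 for *Hbb-b1* and 0.26 for *Alas2* with normexp, -0.50 for *Alad* in the authors' values, 0.040 for *Hba-a1* with slide as a random block and 0.051 with alike arrays as 1, and, without the high-hepatocyte arrays, 0.38, 0.14, 0.32 and -0.33 for *Hba-a1*, *Hbb-b1*, *Alas2* and *Alad*. For old mice *Uros* was 0.15 (75th percentile), 0.24 (normexp), 0.25 (authors' values) and 0.50 (without high-hepatocyte arrays), *Alad* -0.064 (spike-in) and -0.81 (fixed slide), *Cpox* -1.24 (fixed slide), and *Urod* and *Fech* 0.070 and 0.24 (normexp). Without the pair *Hba-a1*, *Hbb-b1*, *Alas2*, *Alad* and *Cpox* were -0.36, -0.51, -0.59, -0.34 and -1.08, and at the other scaling -0.16, -0.32, -0.39, -0.14 and -0.88. Without the high-hepatocyte arrays *Ahsp*, *Urod* and *Fech* were 0.97, 0.25 and 0.86. For age, *Hba-a1* was -0.36 (75th percentile) and -0.43 (probes above background). In the order 75th percentile, quantile, probes above background, spike-in, normexp and authors' values, *Hbb-b1* was -0.40, -0.42, -0.47, -0.45, -0.25 and -0.47 and *Urod* -0.29, -0.40, -0.36, -0.34, -0.24 and -0.50. *Alas2* was -0.46 (75th percentile), -0.53 (probes above background) and -0.39 (normexp), *Uros* -0.076 (75th percentile), -0.13 (spike-in) and -0.080 (normexp), *Alad* -1.74 in the authors' values, and *Fech* 0.020 (random slide) and 0.067 (alike arrays as 1). With each array left out, *Hba-a1* ran from -0.26 to 0.052 in young mice. In old mice *Hba-a1* ran from -0.058 to 0.34, *Alas2* from -0.19 to 0.35, *Alad* from -0.052 to 0.41, *Uros* from -0.43 to 0.020 and *Cpox* from -0.33 to 0.72. For age, *Hba-a1* ran from -0.0074 to 0.30, *Alas2* from -0.073 to 0.17 and *Fech* from -0.14 to 0.072. Fewer members were tested with quantile normalization (6), the spike-in scaling (7), the authors' values (7), and normexp, the mean of all probes or the median of probes above background (8 each).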

Other observations

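Among the regulators outside the 4 most abundant, chosen here after their values were seen, *Bcl11a*, a repressor of embryonic globin genes that B cells also express, fell by 2.89 in young and by 4.00 in old irradiated mice on the log2 scale. The mean of 12 B cell markers fell beside it, from 5.58 to 5.99 in young unirradiated mice to 2.48 to 3.35 in young irradiated mice, and from 5.89 to 6.86 to 1.60 to 3.89 in old mice (1.67 to 3.89 without irradiated replicates 4 and 6). Its part in the value of *Bcl11a* was not tested. *Epor*, the erythropoietin receptor, differed by 2.08 and 2.25 and *Myb*, a factor of early blood precursors, by -2.02 and -2.50, all called. *Klf1*, a red cell factor, differed by 0.013 and 0.39, neither called, and by -0.91 in old mice without irradiated replicates 4 and 6 (adjusted p = 0.052, limma), also not called. In that set *Bcl11a* was at -3.71, *Epor* at 2.32 and *Myb* at -1.76, all called.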
